A study of Mus musculus with 4 samples.

Results

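Ribosomal proteins are the protein components of the ribosome, and here the genes of the cytosolic ribosome were followed in the mesenchyme of the mouse molar tooth germ with and without the signalling ligand Bmp4. Members were taken by symbol, as every gene whose name starts with Rpl or Rps and a number, together with Rplp0, Rplp1, Rplp2 and Rpsa, leaving out the Rps6k kinases and symbols of pseudogenes. This gave 86 of the 22072 gene symbols measured, 34 of the small subunit and 52 of the large subunit. Of these, 77 are the ribosomal proteins themselves (31 small and 46 large, called core members below), 8 are paralogs, which are second gene copies of a ribosomal protein, and 1 is Rps19bp1, which encodes a binding protein of Rps19 and is no ribosomal protein. The symbol pattern took no measured value into account.

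RNA was sequenced from laser-captured molar mesenchyme of embryonic day 13.5 embryos on a mixed strain background, with 1 library for each of 4 groups. The mutant groups, lower molar and upper molar, were Bmp4f/f;Wnt1Cre, in which both floxed Bmp4 alleles are open to deletion in cells that express Wnt1-Cre, a driver active in the neural crest that gives rise to tooth mesenchyme. The control groups, lower molar and upper molar, were Bmp4f/+, and their labels name no Cre. The Cre transgene and the loss of Bmp4 therefore cannot be told apart. Each library was a pool, made according to the series description from 3 pairs of control and mutant samples. Whether the same embryos gave both molars of a genotype is not stated in the labels.

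The cytosolic ribosome has a small subunit, which decodes the mRNA, and a large subunit, which forms the peptide bonds. Each subunit is built in the nucleolus from ribosomal RNA and a set of proteins that are needed in equal copies, apart from the acidic stalk proteins P1 and P2, and growing cells spend a large part of their transcription on these genes. Most ribosomal protein mRNAs start with a run of pyrimidines, the 5′ terminal oligopyrimidine (TOP) tract, through which the mTOR kinase and the RNA-binding protein Larp1 control their translation together. Mouse and human tissues with too little of a single ribosomal protein can show defects in specific organs, craniofacial structures among them.

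Expression is given as FPKM, a count of fragments divided by transcript length in kilobases and by the mapped reads, and summed over the transcripts of a gene. Differences are on the scale log2(FPKM + 1), on which weakly expressed genes change by less than their FPKM does, and FPKM shows a gene relative to all other RNA of its library. Approximate depth was between 4820000 and 5550000 reads on transcripts per library, of which 165000 to 217000 lay on the members, and both mutant libraries were deeper than both controls. The gene meant to be lost, Bmp4, had 4.897 and 4.75 FPKM in the mutant lower and upper molars, against 27.2 and 24.8 FPKM in the control lower and upper molars. In the limma fit described below its loss amounted to an effect of -2.21 ± 0.11 (log2, SE, adjusted p = 0.000799). All 13 listed markers of tooth mesenchyme were detected in every library, with Msx1 at 98.4 to 149.6 FPKM. The summed markers of dental epithelium were at 20.6 to 23.4 FPKM and those of macrophages at 8.48 to 10.5 FPKM, while the erythroid markers, led by the embryonic globin Hbb-y, summed to 920.4 to 1093 FPKM. Shh, an epithelial signal, was listed at 0 in 3 of the 4 libraries.

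The starts of the most highly expressed members are shown to give the sequence in which a TOP tract would lie. Each line holds 30 bases of the gene strand, 15 before and 15 from the RefSeq transcription start, on GRCm38.p6, and the capitals mark the longest run of C and T where that run has at least 6 bases. The expression files use the older build mm9, so these coordinates are not those of the measured loci.
Rps27, chr3:90213634-90213663, minus strand: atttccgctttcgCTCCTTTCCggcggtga
Rpl28, chr7:4792950-4792979, plus strand: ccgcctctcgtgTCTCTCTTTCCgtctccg
Rpl31, chr1:39367836-39367865, plus strand: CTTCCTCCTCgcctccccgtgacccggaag
Rpl10a, first start, chr17:28328456-28328485, plus strand: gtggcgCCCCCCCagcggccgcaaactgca
Rpl10a, second start, chr17:28328550-28328579, plus strand: gctctatttgagcgcatgcgcaaagcgctc
Rpl41, chr10:128549154-128549183, minus strand: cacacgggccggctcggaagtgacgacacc
Rpl10, chrX:74270801-74270830, plus strand: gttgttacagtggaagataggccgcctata
Rps15, chr10:80292416-80292445, plus strand: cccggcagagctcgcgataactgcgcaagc
In Rps27 and Rpl28 the run of pyrimidines spans the annotated start, whereas Rpl41, Rpl10 and Rps15 have no run of that length in the window. Over the 56 core members with an entry, 25 (44.64%) held at least 8 consecutive pyrimidines in this window on the gene strand, against 13.91% of 27025 genes. The hexamer CTTTCC, which can lie inside such a run, was present on the gene strand in 9 core members (16.07%) against 1.669% of all genes, and CTTTTC in 5 (8.929%) against 1.251%. In the whole 300-base promoter, on either strand, CCGGAAG, a core recognised by the ETS factor Gabpa, was found in 23 core members (41.07%) against 9.928% of all genes. AAGATGGC, a core recognised by Yy1, was found there in 5 core members (8.929%) against 3.19%. None of the 56 held TATAAA on the gene strand in the 50 bases before the start, against 3.149% of all genes. These matches describe letters and not bound sites.

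Ribosomal protein mRNAs were among the most abundant in these libraries. Of the 77 core members, 6 averaged 500 FPKM or more over the libraries, 10 lay between 300 and 500 FPKM, 49 between 100 and 300 FPKM, 5 between 50 and 100 FPKM and 7 below 50 FPKM. The median core member had 210 FPKM in each mutant library, against 182 FPKM in the control lower molar and 178 FPKM in the control upper molar.

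**Figure D1:**
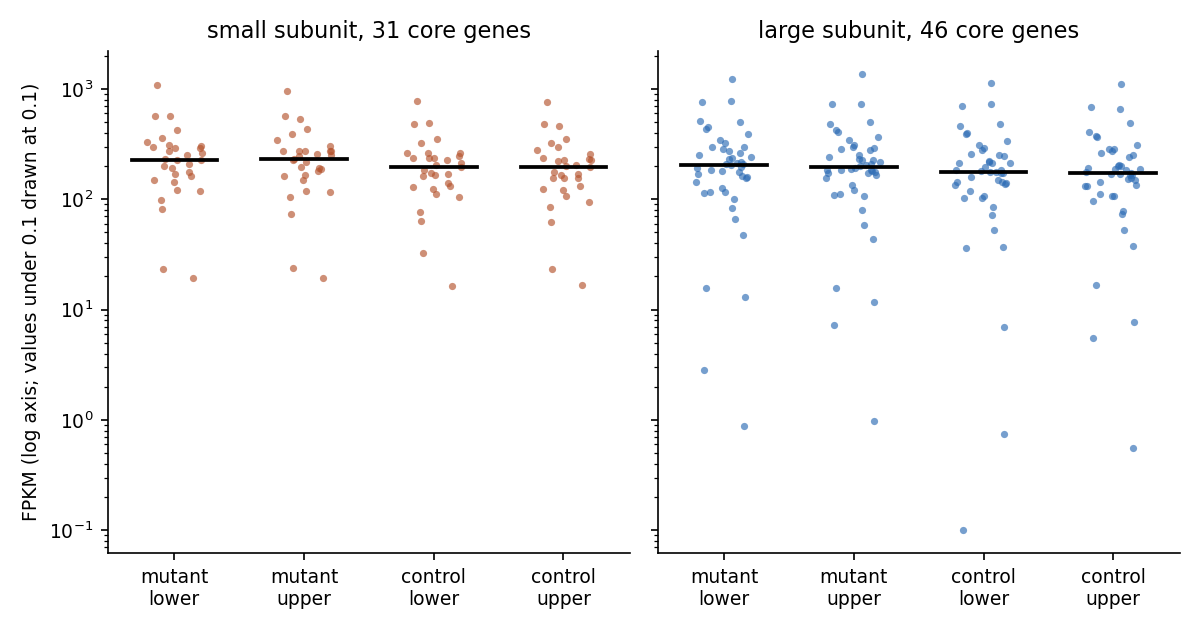
FPKM (log axis) of the 31 core small subunit genes and the 46 core large subunit genes in each library. Each point is 1 gene and each bar is the median, which for the small subunit was 229 and 231 FPKM in the mutant lower and upper molars, against 198 and 196 FPKM in the control lower and upper molars.

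The highest member was Rpl41, which encodes the shortest protein of the ribosome and lies at chr10:127985165-127986224 on mm9. It had 1218 and 1376 FPKM in the mutant lower and upper molars, against 1126 and 1106 FPKM in the control lower and upper molars. Next came Rps27 of the small subunit, at chr3:90016588-90017570, with 1089 and 955 FPKM in the mutant lower and upper molars, against 773 and 759.9 FPKM in the control lower and upper molars. Both genes had both mutant libraries above both controls. Rps27 carried a failed estimation status in the mutant lower molar, where its value is the highest of the 4. Rpl10a of the large subunit had 783 and 734 FPKM in the mutant lower and upper molars, against 735 and 659 FPKM in the control lower and upper molars, and its genotypes overlapped. Rpl10, whose protein joins the large subunit late in its assembly, had 767 and 725 FPKM in the mutant lower and upper molars, against 703 and 679 FPKM in the control lower and upper molars, with the mutants above the controls. Rps15 and Rps29 were also among the highest 5 of the small subunit, at mean levels of 513 and 349 FPKM. Rpl28 and Rpl31 completed those of the large subunit, at 492 and 464 FPKM.

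At the other end, 7 core members had means below 50 FPKM. Rpl26, a protein next to the exit of the peptide tunnel, had 2.84 and 7.19 FPKM in the mutant lower and upper molars, against 0.000132 and 5.54 FPKM in the control lower and upper molars. Its value in the control lower molar corresponds to no read, so the control libraries disagree about this gene. Rpl34 had a mean of 9.86 FPKM, Rps15a of 17.9 FPKM, Rpl30 of 21.1 FPKM, Rps23 of 25.8 FPKM and Rpl22 of 41.4 FPKM. Rps15a is listed with a transcript of 5134 bases, and its FPKM divides by that length. Rps13, Rps27a and Rps7, the other members of the lowest 5 of the small subunit, had means of 108, 91.0 and 70.1 FPKM. Paralogs with a mean below 1 FPKM were not tested. Among them Rpl10l was at 0 in every library, and the paralogs Rpl3l and Rpl39l each had a value above 0 in 1 library.

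The share of sequence that a member has in common with other genes differed widely. All 77 core members shared at least 1 window of 40 bases of their GENCODE transcripts with a pseudogene, with a median of 12 pseudogenes per gene and a highest count of 138, and a median of 57.84% of the windows of a gene were shared. How the authors' pipeline placed reads that match several genes is not given in the sources used here. The level of single members is therefore uncertain. Across the core members the shared percentage and the mean FPKM had a Spearman correlation of 0.229 (n = 77 genes, which are not independent replicates). The 7 core members below 50 FPKM had a median of 42.22% shared, against 58.74% for the other 70. The differences between genotypes were of like size at both ends of this scale. The 9 core members with under 25% shared windows had median differences of 0.20 in the lower molar and 0.25 in the upper molar, and the 23 with at least 75% had 0.16 and 0.23. The GENCODE transcript can be longer than the measured one, so its percentage does not always describe the measured sequence. Rps20, in the group under 25%, has 3706 bases there against 502 in the expression data.

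**Figure D2:**
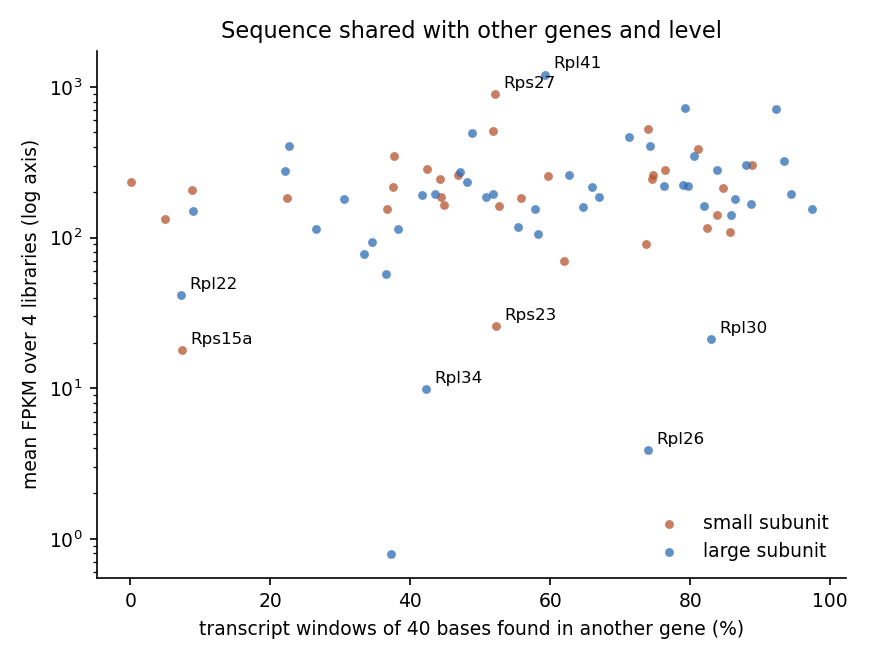
Percentage of 40-base transcript windows found in another gene (x axis) and mean FPKM over the 4 libraries (y axis, log) for the 77 core members, by subunit. Names are given to tested genes at either end of the levels, and low levels occur from 7.256% (Rpl22) to 83.0% (Rpl30) of shared windows.

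The first comparison set the mutant against the control within each molar. Nearly all members were slightly higher in the mutant, in both molars. Of the 82 members tested, 74 were higher in both molars (27.2% of all genes tested), 3 were lower in both (32.4% of all genes) and 5 went opposite ways. Both mutant libraries lay above both control libraries for 70 members (85.37%, against 18.4% of all genes), below them for 2 (23.1% of all genes), and the genotypes overlapped for 10. The median member was at 114% of the control level in the lower molar and 116% in the upper molar, against 96.0% and 101% for all genes tested. Taken singly, 76 members were higher in the mutant in the lower molar (41.6% of all genes) and 77 in the upper molar (53.1%). On the log2 scale the medians were 0.19 in the lower molar and 0.22 in the upper molar, against -0.05 and 0.02 for all genes.

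No member passed the test, which asked each gene apart. limma fitted genotype and molar to log2(FPKM + 1) of the 10502 genes that averaged 1 FPKM or more. With 1 library per group its p-values rest on the disagreement between the 2 molars and not on the spread between embryos. The variance of a gene was mostly taken from other genes of like level, with 5.77 prior against 1 residual degree of freedom. At an adjusted p below 0.05 limma called 0 of 82 members, against 0.8% of all genes (0.343% higher and 0.457% lower in the mutant). At an unadjusted p below 0.05 there were 31 members higher in the mutant (6.68% of all genes) and 1 lower, Rpl30, against 13.2% of all genes in either direction. The smallest limma adjusted p of a member was 0.0669, for Rpl34. Raising the minimum to 5 FPKM gave 2 calls among 81 members, Rpl34 and Rps27, both higher in the mutant, against 146 of 5307 genes. Leaving out transcripts under 0.3 kb gave 1 call among 82 members, Rpl34, against 133 of 10414 genes. Differences of at least 2 times were rare, with 2 members in the lower molar (Rpl26 and Rpl30, 1.1% of all genes) and 0 in the upper molar (1.01%). In bulk tissue a different number of cells of a type and a different amount of RNA per cell cannot be told apart.

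Across all 76 core members tested, the genotype differences had an SD of 0.29 in the lower molar, where they ran from -1.17 to 1.94, and of 0.12 in the upper molar. Over the 70 core members of at least 50 FPKM, 65 had the mutants above the controls (18.4% of all genes tested). The differences of these 70 ran from -0.02 to 0.49 in the lower molar and from -0.10 to 0.54 in the upper molar. Their SD across genes was 0.09 in the lower molar and 0.11 in the upper molar. The 147 other genes of that level and of transcripts under 1500 bases had SDs of 0.30 in the lower molar and 0.19 in the upper molar, with medians of -0.10 and 0.06. Across the 76 core members tested, the differences in the lower and in the upper molar had a Spearman correlation of 0.569, a description across genes that share their libraries.

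**Figure D3:**
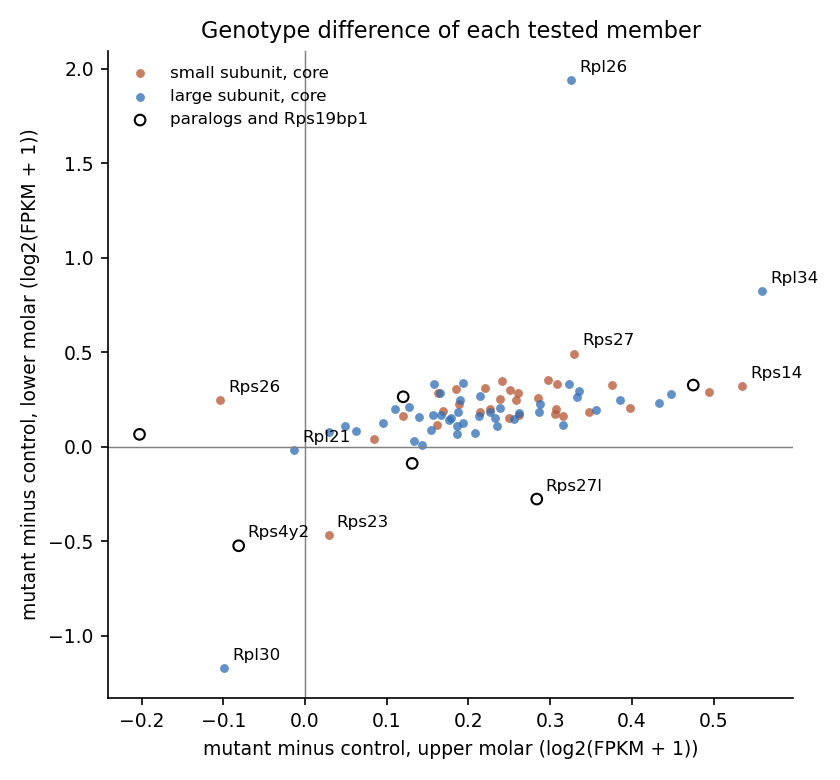
Difference between mutant and control, log2(FPKM + 1), in the upper molar (x axis) and the lower molar (y axis) for the members tested. Most members lie close together in the corner where both differences are above 0, and Rpl26 (1.94 in the lower molar) and Rpl30 (-1.17 in the lower molar) lie farthest out.

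Summed over the members, the share of the library was higher in the mutant. The members made up 13.5% and 12.5% of all FPKM in the mutant lower and upper molars, against 11.6% and 11.2% in the control lower and upper molars. The small subunit made up 5.53% and 5.08% in the mutant lower and upper molars, against 4.51% and 4.45% in the control lower and upper molars. The large subunit made up 8.004% and 7.45% in the mutant lower and upper molars, against 7.05% and 6.77% in the control lower and upper molars. Neither sum overlapped between the genotypes. The ratio of the small to the large subunit sum was 0.690 and 0.681 in the mutant lower and upper molars, against 0.640 and 0.657 in the control lower and upper molars. As summed FPKM, the small subunit in the mutant was 1.20 times the control in both molars, and the large subunit was 1.11 times the control in the lower molar and 1.15 times in the upper molar. The FPKM of all genes summed to 0.979 times the control in the lower molar and 1.05 times in the upper molar. With 2 libraries against 2, an exact two-sided permutation test cannot give a p below 1 in 3, so these sums carry no test.

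**Figure D4:**
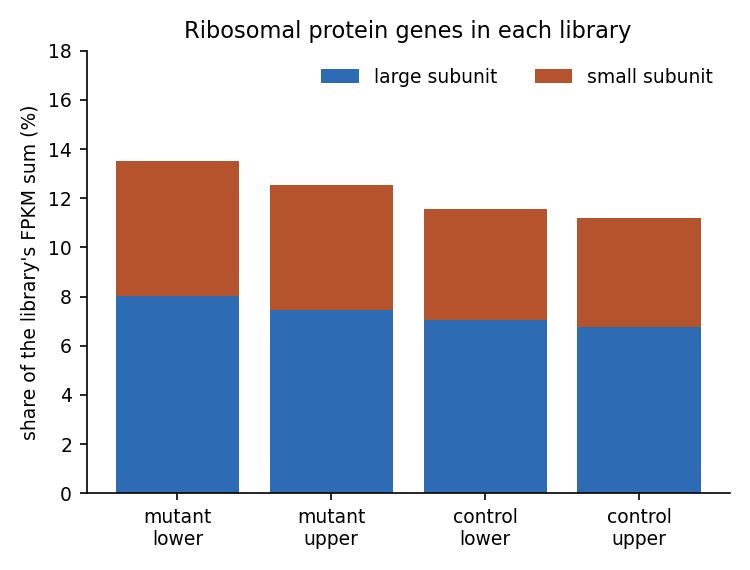
Percentage of the summed FPKM of each library that came from small subunit and large subunit members. The mutant lower molar was highest, with 5.53% from the small and 8.004% from the large subunit, and the control upper molar was lowest, with 4.45% and 6.77%.

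Of the 31 core members of the small subunit, 29 were higher in the mutant in both molars (27.2% of all genes tested). Both mutants lay above both controls for 28 (18.4% of all genes). Rps20, a protein of the head of the subunit, had 231 and 231 FPKM in the mutant lower and upper molars, against 184 and 178 FPKM in the control lower and upper molars. Rps14, on the platform where the mRNA leaves and in human the gene whose loss of a copy impairs red cell formation in a myelodysplastic syndrome, had 201 and 225 FPKM in the mutant lower and upper molars, against 161 and 155 FPKM in the control lower and upper molars. In both genes the mutants lay above the controls without overlap, but neither was called. The limma effects were 0.35 ± 0.10 (log2, SE, limma adjusted p = 0.212) for Rps20 and 0.43 ± 0.11 (log2, SE, limma adjusted p = 0.1703) for Rps14. Rps21 had 162 and 188 FPKM in the mutant lower and upper molars, against 132 and 133 FPKM in the control lower and upper molars, again without overlap. Rps18, a head protein at the contact with the large subunit, was at 126% of the control in the lower molar and 124% in the upper molar. Rps27a, which is made as a fusion with ubiquitin, was at 128% of the control in the lower molar and 123% in the upper molar. Rps27 had an effect of 0.41 ± 0.10 (log2, SE, limma adjusted p = 0.158). Among members without a place in these ranks, Rps6, the substrate of S6 kinase, was at 112% of the control in the lower molar and 109% in the upper molar, and Rps19, which is mutated in human Diamond-Blackfan anaemia, at 122% of the control in the lower molar and 112% in the upper molar.

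The other 3 core members of the small subunit had genotypes that overlapped. Rpsa, also known as the laminin receptor, had 171 and 164 FPKM in the mutant lower and upper molars, against 166 and 155 FPKM in the control lower and upper molars, where the control lower molar exceeded the mutant upper molar. Rps26, which touches the mRNA near the exit channel and lies at chr10:128061584-128063562 on mm9, had 310.1 and 276 FPKM in the mutant lower and upper molars, against 261 and 297 FPKM in the control lower and upper molars. The mutant was higher in the lower molar and lower in the upper molar, and this difference between molars was not tested. Rps23, at the decoding centre, had 23.2 and 23.96 FPKM in the mutant lower and upper molars, against 32.5 and 23.5 FPKM in the control lower and upper molars. The control lower molar stood above the other 3 libraries, which were alike.

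In the large subunit, 43 of 45 core members tested were higher in the mutant in both molars (27.2% of all genes tested). Both mutants lay above both controls for 40 (18.4% of all genes). Rpl34, at chr3:130429748-130433226 on mm9, had 13.03 and 11.8 FPKM in the mutant lower and upper molars, against 6.92 and 7.69 FPKM in the control lower and upper molars. This was the clearest separation among the members, with an effect of 0.69 ± 0.12 (log2, SE, limma adjusted p = 0.0669), and it rests on 109 and 104 approximate reads in the mutant lower and upper molars, against 53.7 and 59.9 in the control lower and upper molars. One of its 2 transcripts had too little data in all 4 libraries and was near 0. Rplp0, which anchors the acidic stalk that recruits translation factors, had 272 and 252 FPKM in the mutant lower and upper molars, against 216 and 201 FPKM in the control lower and upper molars. The genotypes were apart by nearly the same amount in both molars, with an effect of 0.33 ± 0.10 (log2, SE, limma adjusted p = 0.237). Rpl38, whose loss in the mouse disturbs the patterning of the axial skeleton, had 209 and 225 FPKM in the mutant lower and upper molars, against 172 and 165 FPKM in the control lower and upper molars, also without overlap. A transcript of 285 bases with too little data in every library held most of its FPKM. Rpl35a was at 123% of the control in the lower molar and 126% in the upper molar, and Rpl17, at the peptide tunnel, at 120.1% of the control in the lower molar and 126% in the upper molar.

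Few large subunit genes departed from this. Rpl30, at chr15:34370262-34373031 on mm9, had 15.6 and 15.6 FPKM in the mutant lower and upper molars, against 36.4 and 16.7 FPKM in the control lower and upper molars. The control lower molar stood alone above the other libraries, through a second transcript at 23.5 FPKM there and at most 0.0456 FPKM elsewhere, and when the highest transcript alone was used the effect was 0.08 and no longer negative. Rpl21 had 116 and 111 FPKM in the mutant lower and upper molars, against 118 and 112 FPKM in the control lower and upper molars, which overlapped, and its effect of -0.02 changed to 0.0047 when libraries were rescaled by the median of gene ratios. Rpl26 had an effect of 1.13 ± 0.33 (log2, SE, limma adjusted p = 0.237), and in the upper molar alone, with 7.19 FPKM in the mutant and 5.54 FPKM in the control, its difference was 0.33. In Rpl14, with 210.0 and 193 FPKM in the mutant lower and upper molars, against 194 and 187 FPKM in the control lower and upper molars, the control lower molar reached above the mutant upper molar.

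Members were also grouped by place in the ribosome, after their values were seen and with no test. The acidic stalk proteins Rplp0, Rplp1 and Rplp2 had a median difference of 0.23 in the lower molar and 0.32 in the upper molar, and all 3 had the mutants above the controls. Rpl5 and Rpl11, which carry the 5S RNA and can bind the p53 regulator Mdm2, had medians of 0.15 and 0.25 and were both above. Rpl4, Rpl17 and Rpl39 of the peptide tunnel had 0.20 and 0.16. Rpl19, Rpl23a, Rpl31 and Rpl35, around the exit of the tunnel, had 0.16 and 0.21. Rpl3, Rpl8 and Rpl10, around the catalytic centre, had 0.17 and 0.17. Rps2 and Rps3 at the mRNA entry had 0.16 and 0.23. In the exit group of Rps14, Rps26, Rps28 and Rpsa, medians were 0.28 and 0.15, and 2 of 4 had the mutants above the controls. The X-linked members Rpl10, Rpl36a, Rpl39 and Rps4x were all above, with medians of 0.16 in the lower molar and 0.17 in the upper molar.

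Of the 9 symbols outside the core, 6 were tested. Both mutants lay above both controls for 2 of them (18.4% of all genes tested), below for 1 (23.1%), and 3 overlapped. Rpl22l1, the second copy of Rpl22, had 50.3 and 49.97 FPKM in the mutant lower and upper molars, against 39.9 and 35.7 FPKM in the control lower and upper molars, with both mutants above both controls and an effect of 0.40 ± 0.11 (log2, SE, limma adjusted p = 0.198). Rpl22 itself had 47.03 and 43.6 FPKM in the mutant lower and upper molars, against 37.02 and 37.97 FPKM in the control lower and upper molars. The copy and its partner were thus at like levels and both higher in the mutant libraries. Rpl36al, a copy of Rpl36a, had 147 and 145 FPKM in the mutant lower and upper molars, against 122 and 134 FPKM in the control lower and upper molars, without overlap. Rps27l, a paralog of Rps27 and a p53 target in human cells, had 16.8 and 24.5 FPKM in the mutant lower and upper molars, against 20.6 and 19.9 FPKM in the control lower and upper molars, lower in the mutant of the lower molar and higher in that of the upper molar. Rpl7l1 had 7.04 and 8.54 FPKM in the mutant lower and upper molars, against 7.55 and 7.71 FPKM in the control lower and upper molars, which overlapped. Rps4y2, an older symbol of Rps4l that RefSeq lists as a transcribed pseudogene, had 6.27 and 8.096 FPKM in the mutant lower and upper molars, against 9.45 and 8.62 FPKM in the control lower and upper molars, with both mutants below both controls. Rps19bp1 had 6.18 and 5.4 FPKM in the mutant lower and upper molars, against 5.86 and 6.37 FPKM in the control lower and upper molars, which overlapped.

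Genes that work with ribosomal proteins were described by lists, and limma called 0 genes of them at an adjusted p below 0.05 in either direction. The counts at an unadjusted p below 0.05 are given beside each list, and all genes tested serve as the measure, with 18.4% above the controls, 23.1% below, and medians of -0.05 in the lower molar and 0.02 in the upper molar. At an unadjusted limma p below 0.05, 702 of the 10502 genes tested were higher in the mutant and 684 lower. Outside the symbol rule, genes such as Fau (a ubiquitin-like fusion with a small subunit protein) and Gnb2l1 (the scaffold Rack1) also encode parts of the ribosome, and all 3 listed had the mutants above the controls (2 with an unadjusted p below 0.05). Fau had 148 and 142 FPKM in the mutant lower and upper molars, against 107 and 115 FPKM in the control lower and upper molars. Gnb2l1 had 139 and 124 FPKM in the mutant lower and upper molars, against 121 and 107 FPKM in the control lower and upper molars.

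Other mRNAs with a TOP tract were mixed. Of 17, 10 had both mutants above both controls and 2 below (unadjusted, 3 higher and 1 lower), with medians of 0.09 in the lower molar and 0.18 in the upper molar. Eif3e, a subunit of initiation factor 3, had 39.5 and 41.9 FPKM in the mutant lower and upper molars, against 29.2 and 28.6 FPKM in the control lower and upper molars. Tpt1 had 289 and 298 FPKM in the mutant lower and upper molars, against 249 and 219 FPKM in the control lower and upper molars, and Eif3h was at 82.5 and 81.7 FPKM in the mutant lower and upper molars, against 67.97 and 68.5 FPKM in the control lower and upper molars. In these 3 genes the genotypes did not overlap and the mutants were higher. Pabpc1, the poly(A)-binding protein, was the reverse, with 211 and 204 FPKM in the mutant lower and upper molars, against 251 and 238 FPKM in the control lower and upper molars.

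Genes that make ribosomes had medians below 0 in the lower molar and near 0 in the upper molar. The 15 genes of RNA polymerase I and ribosomal DNA transcription had medians of -0.06 in the lower molar and 0.03 in the upper molar, with 3 above the controls and 4 below (unadjusted, 0 in either direction). Polr1b, a catalytic subunit of the polymerase, had 2.17 and 2.201 FPKM in the mutant lower and upper molars, against 2.64 and 2.599 FPKM in the control lower and upper molars. Polr1c, shared with RNA polymerase III, had 13.5 and 13.6 FPKM in the mutant lower and upper molars, against 12.3 and 11.7 FPKM in the control lower and upper molars. The first was below the controls and the second above. The 11 proteins of snoRNPs, which guide ribosomal RNA modification, had medians of -0.22 and 0.01, with 0 above and 3 below (unadjusted, 0 higher and 1 lower). Nop58, a core protein of box C/D snoRNPs, had 12.9 and 18.8 FPKM in the mutant lower and upper molars, against 20.5 and 16.01 FPKM in the control lower and upper molars, with the mutant lower molar below the other libraries. The 26 genes of small subunit assembly had medians of -0.10 and 0.07, with 2 above and 4 below, and the 32 genes of large subunit assembly had -0.15 and 0.04, with 4 above and 5 below (unadjusted, 1 higher and 1 lower in each). Examples from these lists are Dkc1, the pseudouridine synthase of snoRNPs, with 14.5 and 16.1 FPKM in the mutant lower and upper molars, against 21.9 and 17.6 FPKM in the control lower and upper molars, and Ncl, nucleolin, with 24.7 and 27.8 FPKM in the mutant lower and upper molars, against 32 and 30.01 FPKM in the control lower and upper molars, both below the controls. Ppan, a large subunit assembly factor, had 5.05 and 4.28 FPKM in the mutant lower and upper molars, against 3.44 and 3.08 FPKM in the control lower and upper molars, above the controls, and Noc4l of small subunit assembly had 4.28 and 4.06 FPKM in the mutant lower and upper molars, against 5.197 and 5.49 FPKM in the control lower and upper molars, below them. Imp3 of the small subunit processome had 5.86 and 5.87 FPKM in the mutant lower and upper molars, against 4.904 and 4.33 FPKM in the control lower and upper molars, above the controls. Rpf1 of large subunit assembly had 8.52 and 7.86 FPKM in the mutant lower and upper molars, against 10.5 and 9.71 FPKM in the control lower and upper molars, below them.

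Regulators of ribosomal protein synthesis were more often lower than higher in the mutant. Of 22, 13 were lower in both molars (32.4% of all genes) and 1 was higher in both (27.2% of all genes). Both mutants lay below both controls for 8 (23.1% of all genes) and above them for 0 (unadjusted, 3 lower and 0 higher). Medians were -0.16 in the lower molar and -0.11 in the upper molar. The list was not split by whether a gene raises or lowers this synthesis. Larp1, which binds TOP tracts, had 15.4 and 15.2 FPKM in the mutant lower and upper molars, against 18.6 and 17.2 FPKM in the control lower and upper molars. Gabpa had 13.3 and 13.7 FPKM in the mutant lower and upper molars, against 16.4 and 16.7 FPKM in the control lower and upper molars, and Mycl1, a Myc family member, had 2.08 and 2.34 FPKM in the mutant lower and upper molars, against 5.12 and 3.74 FPKM in the control lower and upper molars. For these 3 the mutants were below the controls, with adjusted p of 0.452, 0.343 and 0.110 by limma. Mtor itself had 4.57 and 4.11 FPKM in the mutant lower and upper molars, against 4.44 and 3.94 FPKM in the control lower and upper molars, which overlapped. Mycn, a driver of growth in embryonic tissue, had 3.202 and 5.12 FPKM in the mutant lower and upper molars, against 5.93 and 4.72 FPKM in the control lower and upper molars, with the mutant lower molar lowest. Of the 18 listed genes of p53 and ribosomal stress, 12 were tested, with medians of 0.11 and 0.06 and 1 gene in each direction at an unadjusted p below 0.05. Trp53 was below the controls, with 58.2 and 69.98 FPKM in the mutant lower and upper molars, against 78.6 and 76.8 FPKM in the control lower and upper molars, and its target Aen was above them, with 3.402 and 3.75 FPKM in the mutant lower and upper molars, against 2.297 and 1.998 FPKM in the control lower and upper molars.

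limma called 0 of the proliferation, endothelial, and neuron and glia markers tested, and at an unadjusted p below 0.05 there were 4 proliferation markers and 1 endothelial marker lower and 1 neuron marker higher in the mutant. Of all genes tested, 23.1% had both mutants below both controls and 18.4% above. Of 8 proliferation markers, 7 had both mutants below both controls, and they summed to 199 and 252 FPKM in the mutant lower and upper molars, against 282 and 279 FPKM in the control lower and upper molars. Of 9 endothelial markers, 4 were below and 0 above, with sums of 40.9 and 33.3 FPKM in the mutant lower and upper molars, against 43.5 and 47.4 FPKM in the control lower and upper molars. Of 10 neuron and glia markers 1 was tested, the neurofilament gene Nefl, which was above the controls, and the list summed to 7.39 and 8.69 FPKM in the mutant lower and upper molars, against 4.88 and 3.09 FPKM in the control lower and upper molars. Muscle Myod1 was at 0 in 3 libraries. The part of these genes, or of read depth, in the values of the ribosomal proteins was not tested.

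The difference was set against gene families most like the members. Over all genes tested, 18.4% had both mutants above both controls and 23.1% below. Of 76 mitochondrial ribosomal protein genes, 11 were above (14.5%) and 9 below (11.8%), with medians of -0.07 in the lower molar and 0.10 in the upper molar. Of 79 genes of oxidative phosphorylation, 23 were above (29.1%) and 7 below (8.86%), with medians of 0.01 and 0.15. Of 63 translation factor genes, 16 were above (25.4%) and 18 below (28.6%), with medians of -0.05 and 0.04. Against these counts the core members had 68 of 76 above (89.5%) and 1 below (1.32%). These are counts over libraries that all families share, and no test between families was made.

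**Figure D5:**
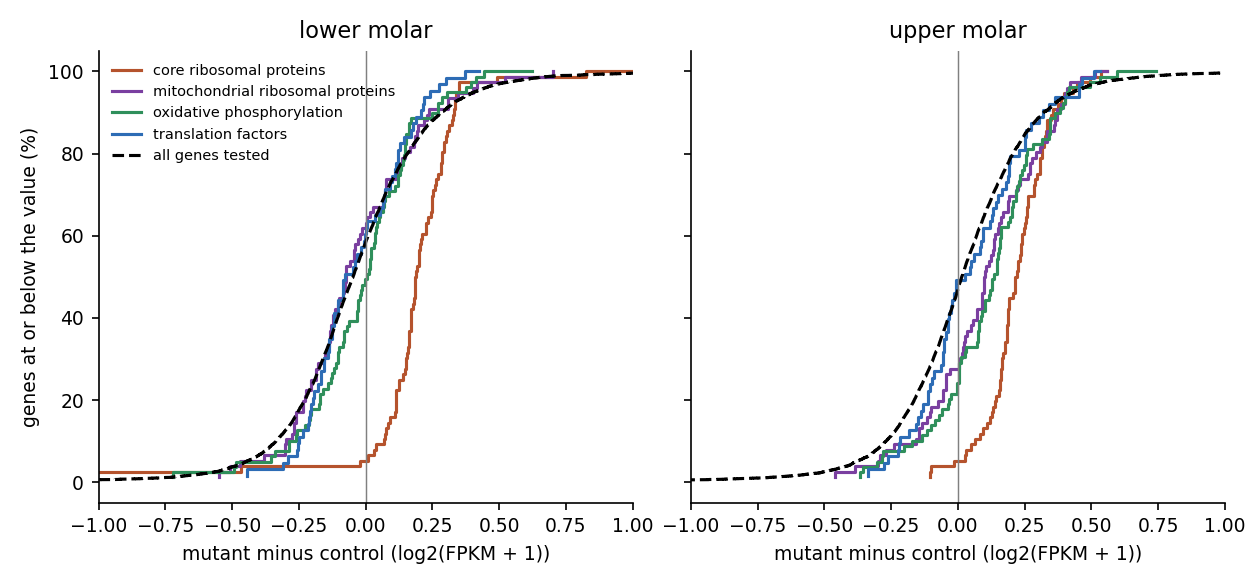
Cumulative percentage of genes (y axis) by their difference between mutant and control, log2(FPKM + 1) (x axis, cut at -1 and 1), in the lower molar (left) and upper molar (right). The core ribosomal protein curve lies to the right of the other families over most of its length in both molars, with medians of 0.19 and 0.22, and all genes tested have medians of -0.05 and 0.02.

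The second comparison set the lower molar against the upper molar within each genotype. The members differed little. limma called 0 of 82 members (0.724% of all genes in either direction), and 1 member, Rpl26, had an unadjusted p below 0.05 (10.2% of all genes). Both lower molar libraries lay above both upper ones for 4 members (12.2% of all genes), below them for 2 (21.2%), and 76 overlapped. The 4 were Rpl10a, Rpl14, Rpl21 and Rpsa, and the 2 were Rpl26 and Rpl7l1. Differences of at least 2 times between molars were seen for 1 member in the mutant (Rpl26, 1.28% of all genes) and for 2 in the control (Rpl26 and Rpl30, 0.971%). The small subunit had medians of -0.004 in the mutant and 0.03 in the control, and the large subunit of 0.02 in the mutant and 0.06 in the control, against -0.07 and -0.004 for all genes tested. Rescaling the libraries to the genes outside the members moved these medians in the mutant to 0.11 for the small and 0.14 for the large subunit, beside 0.02 for all genes.

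Genes were ranked by the smaller of their molar differences in the 2 genotypes, where both had the same sign. Rpl6, the highest of the large subunit in this ranking, had 244 FPKM in the lower molar against 216 FPKM in the upper molar of the mutant, and 215 FPKM in the lower molar against 189.7 FPKM in the upper molar of the control. Rps16 led the small subunit, with 272 FPKM in the lower molar against 248 FPKM in the upper molar of the mutant, and 238 FPKM in the lower molar against 220.5 FPKM in the upper molar of the control. In the other direction Rpl35, at the rim of the tunnel exit, had 154 FPKM in the lower molar against 178 FPKM in the upper molar of the mutant, and 136 FPKM in the lower molar against 148 FPKM in the upper molar of the control. The order of the molars was the same in both genotypes for these 3 genes because the ranking requires it. Rps27a was lower in the lower molar, with 98.2 FPKM in the lower molar against 104 FPKM in the upper molar of the mutant, and 76.7 FPKM in the lower molar against 84.7 FPKM in the upper molar of the control. By the same ranking, Rps15, Rps10 and Rpsa were also higher in the lower molar, with differences from 0.05 to 0.11 on the log2 scale, and in the large subunit Rpl4, Rplp0, Rpl10a and Rpl13, from 0.09 to 0.16. Rps3a, Rps18, Rps28 and Rps29 were lower there, with differences from -0.12 to -0.02, as were Rpl27 and Rpl35a, from -0.16 to -0.06. Across the 76 core members tested, the molar differences of the mutant and of the control had a Spearman correlation of 0.207, against 0.569 between the genotype differences of the 2 molars.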

How the data were processed

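RNA of laser-captured molar mesenchyme was turned into amplified cDNA (NuGEN Ovation v2) and Nextera libraries, per the labels' protocols. The submitters' processing notes name TopHat 1.4.1, Bowtie 0.12.7 and the build mm9. The authors' tables, in the layout of Cufflinks output, give FPKM for 28107 RefSeq transcripts, normalised to mapped reads, and the deposited coverage signal of each transcript, per the file headers. Quantifier version, strand setting and treatment of multiply aligned reads are not given in the sources used here. Amplification and reads shared between near-identical genes can affect single values, and the number of reads sets their precision.

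FPKM was summed per gene symbol. Approximate reads came from coverage times length, divided by 44.2 bases per read, and cover counting error only. No count test was run, since whole reads could not be recovered. Genes averaging 1 FPKM or more entered limma 3.58.1 (R 4.3.3) on log2(FPKM + 1), with genotype and molar as additive terms, an intensity trend, 1 residual and 5.77 prior degrees of freedom, and two-sided Benjamini-Hochberg adjustment at 0.05 over all 10502 genes. The fit was also run on simulated data, and the outcome is not given here. Alternatives were another pseudocount, other filters, 2 rescalings, other transcript sums, other models, and leaving out each library with the term of interest alone, since 2 terms would leave no residual degree of freedom.

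Named genes were, per subunit, the highest and lowest core members by mean FPKM, those with the highest and lowest differences of the same sign in both molars or genotypes, those with the largest gap between molars, and every paralog. From each list up to 4 genes with the largest limma effect were taken. Other named genes (Rps6, Rps19, Rpl14, Larp1, Mtor, and those grouped by place in the ribosome) were chosen after their values were seen. Members and lists were chosen with earlier results of these data known. Promoter windows are RefSeq's on GRCm38.p6, and shared 40-base windows come from GENCODE vM21 transcripts, with all 86 symbols matched. Some genes are not reported here.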

Additional observations from a re-analysis of the deposited data

Results flagged for a closer look

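A few members moved opposite ways in the paired contrasts. With 1 library per group, none of these differences between molars or genotypes was tested, and the values are differences of log2(FPKM + 1). For mutant minus control, Rps26 had 0.25 in the lower molar and -0.10 in the upper molar. In the same contrast the paralog Rps27l had -0.28 in the lower molar and 0.28 in the upper molar. For lower minus upper molar, Rps26 had 0.17 in the mutant and -0.19 in the control. Rpl34 had 0.13 in the mutant and -0.13 in the control. Rps19bp1 had 0.17 in the mutant and -0.10 in the control, and Rps4y2 had -0.32 in the mutant and 0.12 in the control.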

How the results depend on the processing

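No paired analysis was possible because each group has 1 library and the labels give no replicate numbers. limma called 0 members for either term in the reported fit. Fits without 1 library kept the term of interest alone, so they set unmatched molars or genotypes against each other, with a lone library assumed to vary like the rest. They called 0 members and are too small to speak of stability. With a minimum mean of 5 FPKM limma called 2 of 81 members for genotype, Rpl34 and Rps27, both higher in the mutant, against 146 of 5307 genes. Without transcripts under 0.3 kb it called 1 of 82 members for genotype, Rpl34, against 133 of 10414 genes. For molar it then called 1 of 82, Rpl26, lower in the lower molar, against 139 of 10414 genes. Members with both mutants above both controls numbered 70 as reported, between 65 and 71 under other filters, scalings and sums, and between 72 and 74 with a library left out, where 29.4% to 39.2% of all genes did so. These alternatives for non-overlap were chosen after seeing the data. The genotype medians of both subunits moved by less than 1.5 times or by less than 0.05. The molar medians in the mutant moved to 0.067 (small) and 0.094 (large) with median ratios, and to 0.109 and 0.136 with rescaling to genes outside the members. With the highest transcript of each gene the members' share of FPKM was 14.0% and 12.9% in the mutant lower and upper molars, against 11.96% and 11.6% in the control lower and upper molars. With core members alone it was 13.4% and 12.4% in the mutant lower and upper molars, against 11.4% and 11.1% in the control lower and upper molars.

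Genotype effects changed sign for Rpl21 with median ratios (0.0047) and for Rpl30 with the highest transcript (0.080). Leaving out 1 library and the other term together gave effects from -0.052 to 0.019 for Rpl21, -0.22 to 2.49 for Rpl26, -0.10 to 0.15 for Rpl7l1, -0.15 to 0.015 for Rps19bp1, -0.45 to 0.0068 for Rps23, -0.021 to 0.17 for Rps26 and -0.25 to 0.26 for Rps27l. The molar effect of Rps27a ranged from -0.29 to 0.061, and the members' median molar effect of 0.027 from -0.082 (18 of 82 positive) to 0.13 (74 of 82). In matched libraries Rpl21 was below 0 in both molars, Rpl26 above 0 in both, and Rps27a below 0 in both genotypes. The highest transcript of Rpl30 leaves out its second transcript, which had 23.5 FPKM in the control lower molar and at most 0.0456 FPKM elsewhere. Why that transcript stood out there was not tested, nor was the cause of the change in Rpl21. Over all genes, limma called 84 for genotype, 146 at a minimum of 5 FPKM, 133 without short transcripts, 12 and 14 under the 2 rescalings, 38 without the trend, 7 with genotype alone, 0 without the filter or with the highest transcript, and 5 to 18 with a library left out. The same counts for molar were 76, 127, 139, 29 and 55, 65, 12, 0 and 1, and 0 to 21.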
